A study of Mus musculus with 6 samples.

Results

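Signal peptidase and the channel of the endoplasmic reticulum (ER) were followed through 10 subunit genes in microglia, the resident macrophages of the brain. The genes are Sec11a, Sec11c, Spcs1, Spcs2, Spcs3, Sec61a1, Sec61b, Sec61g, Ssr3 and Sec62, taken by symbol from a table of 48587 genes, and all 10 were found and passed the filter on low counts. The set was chosen by its link to Sec11c, whose levels had been seen to differ between the genotypes of this same table, so the members' genotype values are a description, and no member's call is given. Tests run across all genes of the table and are given as counts. Approximately 1000 microglia per sample were obtained by fluorescence-activated sorting from C57BL/6 mice aged 42 days after birth, and their polyadenylated RNA was sequenced. The wild-type group and the Lyl1 KO group have 3 samples each; Lyl1 encodes a basic helix-loop-helix factor known from blood formation, and the comparison addresses its role in microglia. The labels describe neither the targeted allele nor the sorting gate, and they do not say that samples came from separate animals, so every p here reflects sample-to-sample spread alone, part or all of which can be technical.

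Proteins bound for the cell surface, for lysosomes or for secretion start with a hydrophobic stretch that brings the ribosome to the ER membrane. There the Sec61 channel, made of alpha, beta and gamma chains, lets the growing chain through, with Sec62 and the translocon-associated protein complex as helpers. Signal peptidase then cuts the leading stretch off. Microglia send large amounts of complement, cathepsins, apolipoproteins and surface receptors along this route.

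Signal peptidase has 1 catalytic chain, encoded by either Sec11a or Sec11c, and the accessory subunits Spcs1, Spcs2 and Spcs3. The principal coding transcripts of both held no 50-base word, the length of a read, that occurs in an annotated transcript of another gene (0 of 1296 words for Sec11a and 0 of 811 for Sec11c). Reads of these transcripts can thus be told apart. It held least for 2 translocon subunits, and their coding sequences are printed because their counts depend on it. In GENCODE M21 transcripts, capitals mark bases inside a 50-base word of the coding sequence that also occurs in a transcript of another gene, and lower case marks the rest.
Sec61g: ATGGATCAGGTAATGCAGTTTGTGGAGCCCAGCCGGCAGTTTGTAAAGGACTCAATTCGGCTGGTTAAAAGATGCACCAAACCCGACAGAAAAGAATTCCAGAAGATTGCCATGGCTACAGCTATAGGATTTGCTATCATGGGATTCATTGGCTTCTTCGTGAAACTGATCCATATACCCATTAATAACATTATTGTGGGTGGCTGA
Sec61b: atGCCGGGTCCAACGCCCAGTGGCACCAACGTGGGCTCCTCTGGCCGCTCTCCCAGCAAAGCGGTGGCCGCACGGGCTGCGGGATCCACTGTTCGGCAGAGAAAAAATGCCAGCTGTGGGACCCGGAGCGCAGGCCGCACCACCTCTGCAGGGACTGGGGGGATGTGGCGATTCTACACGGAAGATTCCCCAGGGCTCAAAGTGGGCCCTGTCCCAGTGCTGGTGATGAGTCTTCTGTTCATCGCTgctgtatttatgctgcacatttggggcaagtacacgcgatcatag

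Sec61g, the gamma chain of the channel (ENSMUSG00000078974.10, chromosome 11, 16500530 to 16508484, minus strand), has a coding sequence of 207 bases, and all 158 of its 50-base words occur in another annotated gene. Over its shortest principal transcript, untranslated parts included, 311 of 401 words were shared. The 5 gene models that share them are processed copies, and Gm10177 alone holds 371 such words of the gene. Sec61b, the beta chain (ENSMUSG00000053317.11, chromosome 4, 47474658 to 47483242, plus strand), shares 182 of 242 coding words, mostly with Gm10320. For reads that match several places, the rule of the counting is not given in the sources used here. Few reads of the table went to the copies, with 2, 10 and 7 for Gm10177 in wild type against 6, 1 and 3 in knockout, and with 12, 1 and 9 against 4, 5 and 2 for Gm10320. The listed level of Sec61g, and in part that of Sec61b, is therefore uncertain.

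**Figure D1:**
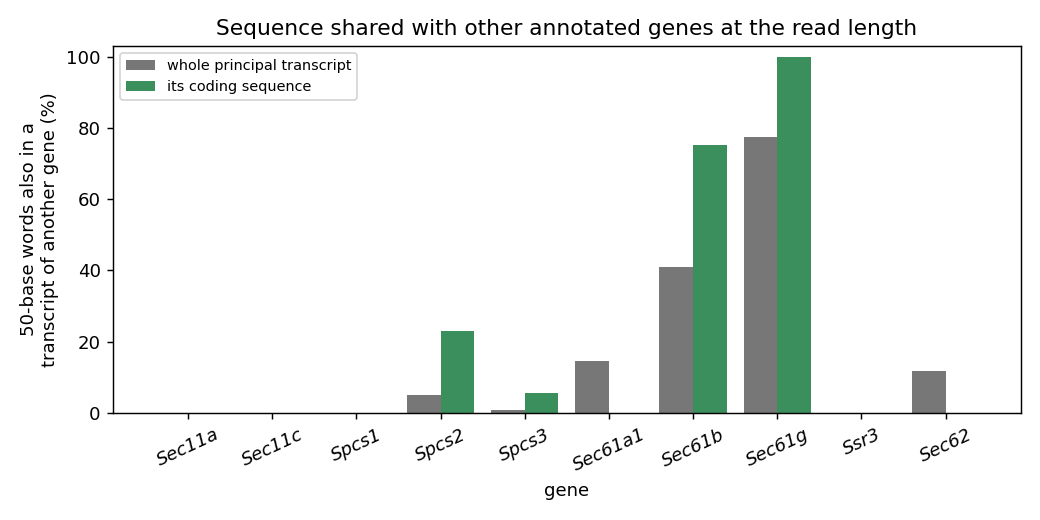
Share of 50-base words of each gene's principal GENCODE transcript that also occur in a transcript of another gene, in percent, for the whole transcript (grey) and its coding sequence (green). Sec61g has all 158 coding words shared and Sec61b 182 of 242. Sec11a, Sec11c, Spcs1 and Ssr3 have none in the whole transcript, and Sec61a1 and Sec62 have none in the coding sequence.

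Other members share sequence with a neighbour on the opposite strand rather than with a copy elsewhere. Sec61a1, the channel's alpha chain (ENSMUSG00000030082.14, chromosome 6, 88503579 to 88518905, minus strand), overlaps the antisense model Gm44170 over 549 exon bases, and Sec62 (ENSMUSG00000027706.8, chromosome 3, 30792875 to 30821263, plus strand) overlaps 4933429H19Rik over 509. Spcs1 (ENSMUSG00000021917.16, chromosome 14, 30999826 to 31001672, minus strand) overlaps Glt8d1 over 252 exon bases and Spcs3 (ENSMUSG00000054408.9, chromosome 8, 54520433 to 54529998, minus strand) overlaps Asb5 over 75. Sec11a overlaps exons of Gm16171 on the opposite strand and of Nmb on its own strand, outside its principal transcript. Since the libraries carry no strand information, a read from these stretches cannot be assigned to 1 gene. Spcs2 (ENSMUSG00000035227.7, chromosome 7, 99837569 to 99863462, minus strand) shares 146 of 632 coding words with the pseudogene Spcs2-ps, which had from 5 to 13 reads in a sample. Ssr3 (ENSMUSG00000027828.12, chromosome 3, 65379655 to 65392623, minus strand) had no shared word in any annotated transcript.

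Total counts ran from 12753945 to 27378614 per sample, with 12827 to 15652 genes detected. Levels are given as CPM, read counts relative to the library size after TMM scaling, which makes libraries of unequal depth comparable. Lyl1 measured 60.2, 55.6 and 40.0 CPM in wild type against 9.03, 12.0 and 14.3 CPM in knockout, lower in every knockout sample but present. The microglia markers P2ry12, Tmem119, Cx3cr1 and Csf1r were high in every sample, with summed levels from 26030 to 28163 CPM in wild type and from 26360 to 29010 in knockout. Of 5 B and plasma cell genes and 4 choroid plexus genes, markers of strongly secreting cells, none passed the filter and no sample exceeded 1.48 CPM in the sum of either list. Wild-type sample 1 had the highest sums for border-associated macrophages (95.8 CPM, mostly Mrc1; 1 of 5 genes passed the filter), oligodendrocytes (225 CPM, mostly Mag; 2 of 5) and endothelial cells (154 CPM, mostly Pecam1, with Cldn5 at 0 in all samples; 1 of 5). Sums in the remaining samples ran from 0.254 to 23.6, 40.8 to 92.8 and 26.1 to 61.6 CPM. Astrocyte genes summed to 410, 402 and 176 CPM in wild type and 258, 229 and 170 in knockout, nearly all of it Slc1a3, with Gfap and Aldoc at 0. Globin genes summed to 222 and 65.2 CPM in knockout samples 1 and 2 and to at most 1.23 CPM elsewhere, and the remaining marker lists, of neurons and of monocytes and neutrophils, to at most 7.62 CPM. In bulk RNA, fewer cells of a type and less RNA per cell cannot be told apart.

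The 5 signal peptidase genes all had fitted log2 fold changes below 0 in knockout microglia, from -1.31 to -0.28, with Sec11c, whose difference led to the set, and Spcs2 furthest down; 51.3% of all genes tested lay below 0. Spcs1 and Spcs3 were within about 1 standard error of 0, and Spcs3 had a log2 fold change of 0.14 without wild-type sample 2. Among the 5 translocon genes Sec61a1 and Sec61b had negative values and Sec61g, Ssr3 and Sec62 had values from 0.05 to 0.12. Summed over the signal peptidase genes, the level was 1798, 1928 and 1226 CPM in wild-type samples 1 to 3 and 1024, 804 and 914 CPM in knockout samples 1 to 3. These sums did not overlap, but they contain Sec11c. Without Sec11c and Spcs2 the remaining 3 genes summed to 631, 664 and 409 CPM in wild type and 414, 400.2 and 397 CPM in knockout, and the genotypes overlapped. For the translocon genes the sums were 622, 600.3 and 416 CPM against 370, 526 and 529 CPM, and the genotypes overlapped.

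**Figure D2:**
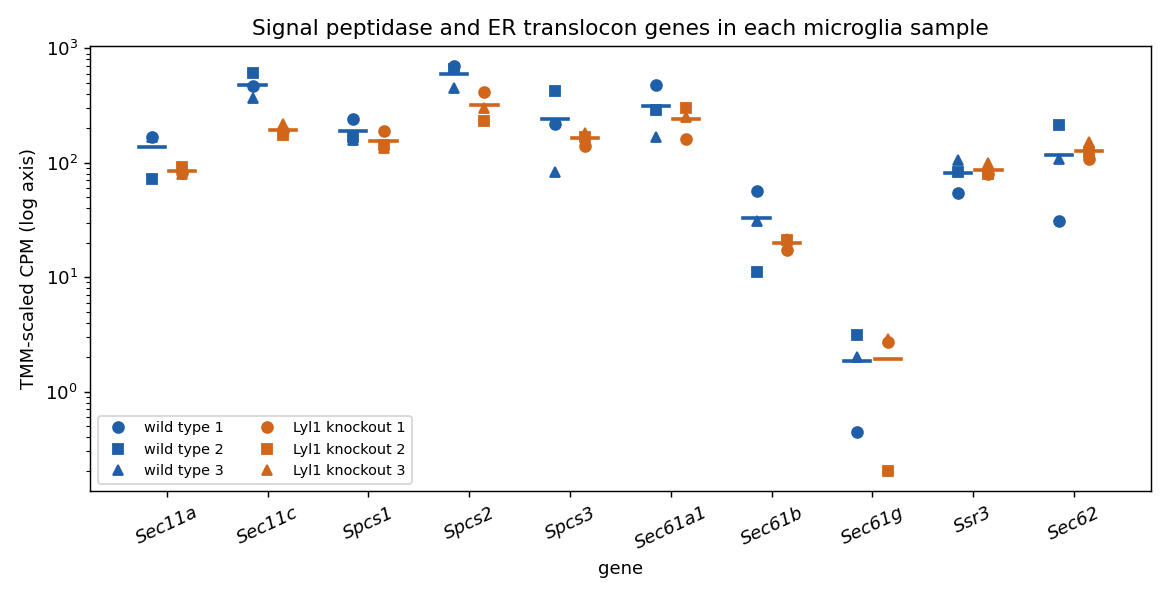
TMM-scaled CPM (log axis) of each of the 10 genes in each sample, wild type in blue and knockout in orange, with bars at the mean of 3 samples. Sec11c and Spcs2 are the genes whose knockout samples all lie below every wild-type sample, and Sec61g lies from 0.203 to 3.10 CPM.

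Sec11c, the catalytic chain that differed most, measured 468, 608 and 369 CPM in wild-type samples 1 to 3 against 190, 175 and 217 CPM in knockout samples 1 to 3. The knockout samples lay close together and all below wild type, 2.49-fold lower on average. The fit gave a log2 fold change of -1.31 (standard error 0.28). Sec11a, its paralog, measured 170, 71.6 and 169 CPM in wild type against 82.1, 91.9 and 80.1 CPM in knockout. Wild-type sample 2, the highest for Sec11c, was the lowest of all 6 for Sec11a, so the genotypes overlapped. For Sec11a the fit gave -0.69 (standard error 0.49).

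The catalytic paralogs lie on different chromosomes in GRCm38, Sec11a (ENSMUSG00000025724.12) on chromosome 7 from 80904889 to 80947780 on the minus strand and Sec11c (ENSMUSG00000024516.13) on chromosome 18 from 65800515 to 65817684 on the plus strand. Because both paralogs fill the same place in the complex, their reads can be set against each other within a sample, where depth cancels. Sec11c gave 73.4%, 89.5% and 68.6% of the reads of the pair in wild-type samples 1 to 3 and 69.8%, 65.5% and 73.0% in knockout samples 1 to 3. The exact 95% binomial interval was widest for knockout sample 2, from 64.2% to 66.8% of 5246 reads, and it covers counting error only. Means were 77.1% ± 10.9 in wild type and 69.5% ± 3.75 in knockout (SD, n = 3 each), and the genotypes overlapped. Sec11c was thus the more read paralog in every sample, and the lower Sec11c level in knockout came without a separation of the genotypes in this share. This share is of reads and is not corrected for transcript length.

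**Figure D3:**
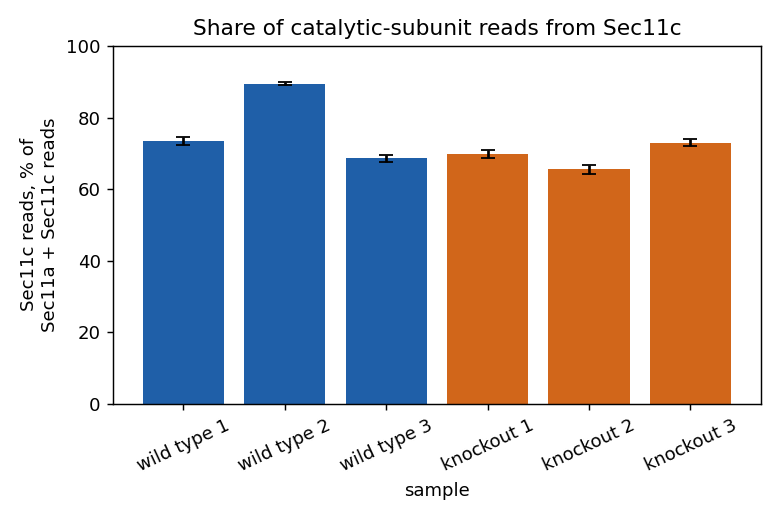
Sec11c reads as a percentage of Sec11a plus Sec11c reads in each sample, with exact 95% binomial intervals. Wild-type sample 2 stands highest at 89.5%, and the other 5 samples lie between 65.5% and 73.4%.

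Spcs2, an accessory subunit that contacts the translocon, measured 699, 656 and 449 CPM in wild type against 419, 230 and 301 CPM in knockout. All knockout samples were below all wild-type samples, though knockout sample 1 and wild-type sample 3 were near each other. The fit gave a log2 fold change of -0.93 (standard error 0.31). Spcs1, a small membrane subunit, was at 243, 169 and 157 CPM against 191, 142 and 135 CPM. The genotypes interleaved for Spcs1, and its log2 fold change of -0.28 was smaller than its standard error of 0.35. Spcs3, the subunit that lies mostly in the ER lumen beside the catalytic chain, measured 219, 423 and 83.2 CPM in wild type against 141, 167 and 181 CPM in knockout. Wild type held both the highest and the lowest Spcs3 value, and the fit gave a log2 fold change of -0.57 (standard error 0.55).

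Sec61a1, which forms the pore itself, measured 479, 289 and 169 CPM in wild type against 163, 302 and 253 CPM in knockout. Wild-type sample 1 stood above all others and the remaining samples interleaved (log2 fold change -0.39, standard error 0.44). Without that sample the log2 fold change of Sec61a1 turned to 0.07. Sec61b measured 56.5, 11.2 and 31.0 CPM in wild type against 17.2, 21.3 and 21.5 CPM in knockout. The 3 knockout samples lay inside the wild-type range, and the log2 fold change of -0.72 had a standard error of 1.12. It was -0.06 without wild-type sample 1. Read numbers for Sec61g were 5, 78 and 42 in wild type against 61, 4 and 82 in knockout, or 0.441, 3.10 and 2.00 CPM against 2.69, 0.203 and 2.85 CPM. Each genotype thus had 1 sample with 5 or fewer reads, and no direction can be read from this gene (log2 fold change 0.05, standard error 1.48).

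Ssr3, the gamma chain of the translocon-associated protein complex, measured 54.4, 83.3 and 106 CPM in wild type against 79.7, 79.1 and 98.9 CPM in knockout. Sec62, a membrane protein that helps short and weakly targeted chains enter the channel, measured 31.0, 213 and 108 CPM in wild type against 108, 124 and 152 CPM in knockout. For both genes the knockout samples lay within the wild-type range, with log2 fold changes of 0.08 and 0.12 and standard errors of 0.52 and 0.67. Their sign is not settled, since both were below wild type once wild-type sample 1, the lowest for each, was left out, and also without knockout sample 3.

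**Figure D4:**
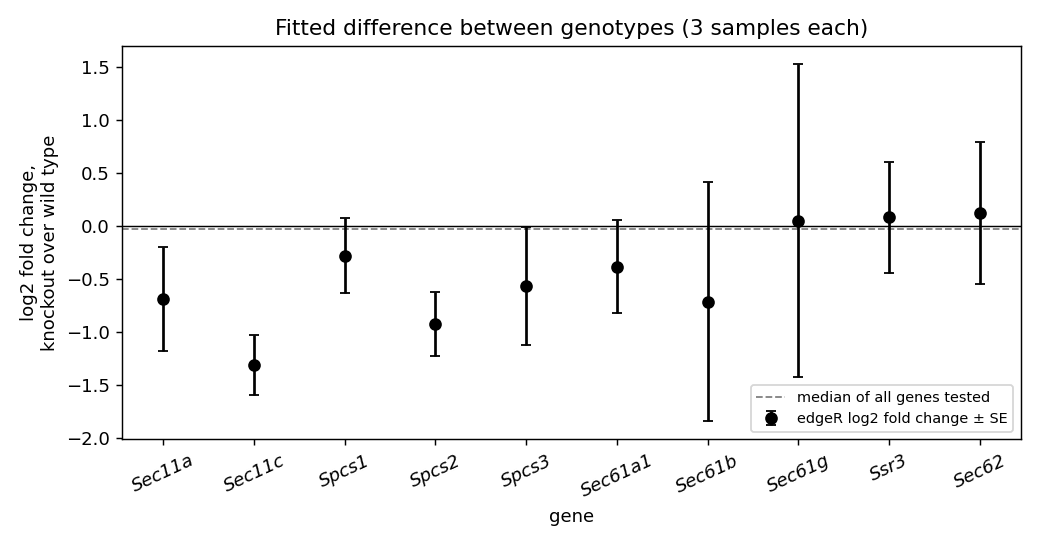
Fitted log2 fold change of each gene, knockout over wild type, with its standard error, from edgeR on 3 samples per genotype; the dashed line is the median of all genes tested. All 5 signal peptidase genes lie below 0, with Sec11c at -1.31 and Spcs2 at -0.93.

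Across the 10 members 7 had a negative log2 fold change, with a median of -0.48, where 51.3% of the 10394 genes tested were negative with a median of -0.03. With no overlap between the genotypes 2 of 10 were lower, Sec11c and Spcs2, against 5.19% of all genes tested, and none was higher without overlap, against 5.97%. No gene of the 10394 passed an adjusted p of 0.05 (0% in edgeR's quasi-likelihood test), while 2.84% had an unadjusted p under 0.05 and DESeq2 called 52 genes and limma-voom 0. As the members were proposed with this contrast known, nothing is read from these counts. The same 7 genes were below wild type under TMM, RLE, upper-quartile and library-size scaling. Without wild-type sample 2 there were 6, as Spcs3 turned. Without wild-type sample 1 there were 9, as Sec61g, Ssr3 and Sec62 turned to lower and Sec61a1 to higher, and without knockout sample 3 there were 10. Wild-type sample 1 was the highest of the 6 for 5 members and also had the highest sums of oligodendrocyte, endothelial and border-associated macrophage genes. Their part in the result was not tested. Without that sample the log2 fold change was -1.32 for Sec11c, -0.05 for Spcs1, -0.06 for Sec61b and 0.07 for Sec61a1. With all samples these values were -1.31, -0.28, -0.72 and -0.39. Xist, which marks female cells, measured 349 and 412 CPM in knockout samples 1 and 3, against 0.203 CPM in knockout sample 2 and at most 1.41 CPM in wild type. The Y-linked Ddx3y was at 1.06, 28.7 and 9.44 CPM in wild type against 0, 7.57 and 0.0696 CPM in knockout, and Kdm5d at 7.14, 155 and 15.5 CPM against 0.0881, 19.6 and 0.0696 CPM. High Xist was thus seen in knockout samples alone, so sex and genotype are partly confounded, and the part of sex in the members' values was not tested. Xist was added as a covariate after the data were seen. Since only knockout sample 2 had Xist as low as wild type, the genotype term of that fit rested mainly on this sample. It is thus not a sex-adjusted comparison of all knockout samples with wild type. In that fit the log2 fold change was -1.45 for Sec11c (standard error 0.45). It was -1.36 for Spcs2 (standard error 0.42) and -0.16 for Sec61a1 (standard error 0.61). The members' median in that fit was -0.57, where the median of all genes tested was -0.27.

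Levels of different genes were compared as CPM per kilobase of annotated exon. In wild type the order was Spcs2 (142 ± 31.7), Spcs1 (123 ± 29.99), Sec11c (70.7 ± 17.7), Spcs3 (69.7 ± 49.3), Sec61a1 (46.4 ± 23.2), Sec11a (29.6 ± 12.2), Sec62 (27.1 ± 21.1), Sec61b (25.9 ± 17.9), Ssr3 (19.5 ± 6.21) and Sec61g (0.750 ± 0.542, all SD, n = 3). Only Spcs1 and Sec11c, and Ssr3 and Sec61g, were neighbours in this order whose samples did not overlap. In knockout the order began with Spcs1 (101 ± 19.7) and Spcs2 (75.0 ± 22.7), and Sec11c came sixth at 28.5 ± 3.11. The place of Sec11c depended on the length used, because its annotated exons (6808 bases) are far longer than its longest coding transcript (860 bases). Per kilobase of the longest coding transcript, a measure added after the data were seen, Sec11c was first in both genotypes, at 560 ± 140 in wild type and 225 ± 24.6 in knockout. Sec61g was last under every length tried.

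The rest of the ER entry route was taken from lists of 99 genes, of which 97 were found and 92 tested. None passed edgeR's adjusted threshold, while an unadjusted p under 0.05 was reached by 2 lower and 0 higher genes, where 1.67% of all genes tested were lower and 1.16% higher at that level. Below wild type were 56 of the 92, against 51.3% of all genes tested, with a median log2 fold change of -0.15. The same 51.3% is the background for the count of each list below. Without overlap between the genotypes 7 of the 92 were lower and 4 higher, against 5.19% and 5.97% of all genes tested.

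Translocon genes outside the set were split, with 3 of 6 tested below wild type and a median of 0.06. Ssr4, the delta chain of the translocon-associated protein complex and so a partner of Ssr3, measured 330, 416 and 255 CPM in wild type against 172, 148 and 208 CPM in knockout, with all knockout samples lower. The fit gave a log2 fold change of -0.92 (standard error 0.31), with an unadjusted p of 0.0190 and an adjusted p of 0.9999 in edgeR's quasi-likelihood test. Ssr2, the beta chain, was at 339, 118 and 150 CPM against 126, 130 and 121 CPM, so the higher wild-type mean rested on wild-type sample 1. Whether Ssr3 and Ssr4 differed from each other in the genotype contrast was not tested.

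Over the 6 samples, Ssr4 was also the gene whose log2(CPM + 1) was most like that of Sec11c, with a Pearson r of 0.984 among 1746 genes at 100 CPM or more. Trem2, a lipid receptor of microglia, followed at 0.984 and Tmbim6, an ER membrane protein, at 0.979. For Sec61b the most alike were C5ar1 (0.994), Apobec3 (0.992) and Ostc (0.985), all highest in wild-type sample 1 and lowest in wild-type sample 2. These values describe the 6 libraries, share their scaling and, for Sec11c, contain the genotype difference itself.

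Of the signal recognition particle and its receptor, which bring the ribosome to the channel, 4 of 8 tested genes were below wild type, with a median of -0.10. Srp14, an Alu-domain subunit of the particle, measured 271, 139 and 148 CPM in wild type against 63.8, 108 and 99.8 CPM in knockout (log2 fold change -1.04, standard error 0.45). Srp19 was at 87.0, 82.9 and 115 CPM against 65.3, 63.6 and 44.5 CPM. Srp14 and Srp19 were the 2 of 8 genes lower without overlap, against 5.19% of all genes tested. Srpr, the receptor's alpha chain, was the 1 gene higher without overlap, against 5.97%, at 4.32, 74.0 and 85.1 CPM in wild type and 98.7, 113 and 114 CPM in knockout (log2 fold change 1.00, standard error 0.95), a gene singled out with its values known. All 3 had an adjusted p of 0.9999 in edgeR's quasi-likelihood test.

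Oligosaccharyltransferase adds sugar chains to proteins as they leave the channel, and 11 of its 12 genes were below wild type, with a median of -0.50 against -0.03 for all genes tested. None of the 12 had an unadjusted p under 0.05. Dad1 measured 227, 233 and 222 CPM in wild type against 89.4, 134 and 186 CPM in knockout, with the 3 wild-type samples close together and every knockout sample lower. Ost4, a very small subunit, was at 105, 104 and 29.7 CPM against 32.0, 26.7 and 34.8 CPM, and wild-type sample 3 lay within the knockout range. Rpn2 lay at the same mean in both genotypes, at 584 ± 389 and 582 ± 91.8 CPM, and is named here after its value was seen.

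Insertion routes that bypass or assist the channel gave 6 of 9 genes of the ER membrane protein complex below wild type (median -0.27) and 6 of 7 genes of tail-anchored protein insertion (median -0.03). Emc7 lay at 213 ± 94.2 CPM in wild type against 137 ± 32.7 in knockout and Sgta, a cytosolic chaperone of tail-anchored proteins, at 158 ± 49.1 and 85.4 ± 31.7, with overlap for both. Emc1 ranged from 0.0882 to 38.2 CPM in wild type and from 0.396 to 119 CPM in knockout, and Ubl4a from 21.6 to 286 and from 19.9 to 102. Of the signal peptide peptidase family, proteases that cut inside the membrane, 4 of 5 listed genes were found. Hm13, signal peptide peptidase itself, was not found under that symbol. Of the 3 tested relatives, Sppl2a, Sppl2b and Sppl3, 1 was below wild type. Read numbers for Sppl2b were 5, 3 and 1054 in wild type against 1881, 1188 and 1917 in knockout, and Sppl2a was at 580, 24.0 and 167 CPM against 125, 214 and 150 CPM.

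Lists of genes that act after entry had medians on both sides of 0. Of 16 ER chaperones and disulfide isomerases 7 were below wild type (median 0.09). Ppib, a prolyl isomerase of the ER, measured 325, 232 and 179 CPM in wild type against 110, 175 and 149 CPM in knockout, while Hyou1, an ER chaperone, measured 0.441, 0.715 and 14.2 CPM against 104, 41.8 and 17.9 CPM. Of 11 genes of ER-associated degradation 5 were below wild type (median 0.07), with Derl2 at 216 ± 73.2 and 116 ± 25.5 CPM and Os9 at 209 ± 124 and 356 ± 60.4. Unfolded protein response regulators had 7 of 9 below wild type (median -0.45), among them the sensor Atf6 at 51.9, 46.6 and 63.0 CPM against 30.9, 14.0 and 26.4 CPM and Mbtps1, a protease that activates it, at 178 ± 138 and 43.5 ± 32.2. Of 11 genes of the COPII coat, which carries cargo out of the ER, 6 were below wild type (median -0.16). Sec23b measured 351, 137 and 130 CPM in wild type against 111, 38.9 and 53.2 CPM in knockout (log2 fold change -1.60, standard error 0.61, unadjusted p of 0.0305, adjusted p of 0.9999 in edgeR's quasi-likelihood test), and Sec16a at 131 ± 86.0 and 51.4 ± 13.6.

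**Figure D5:**
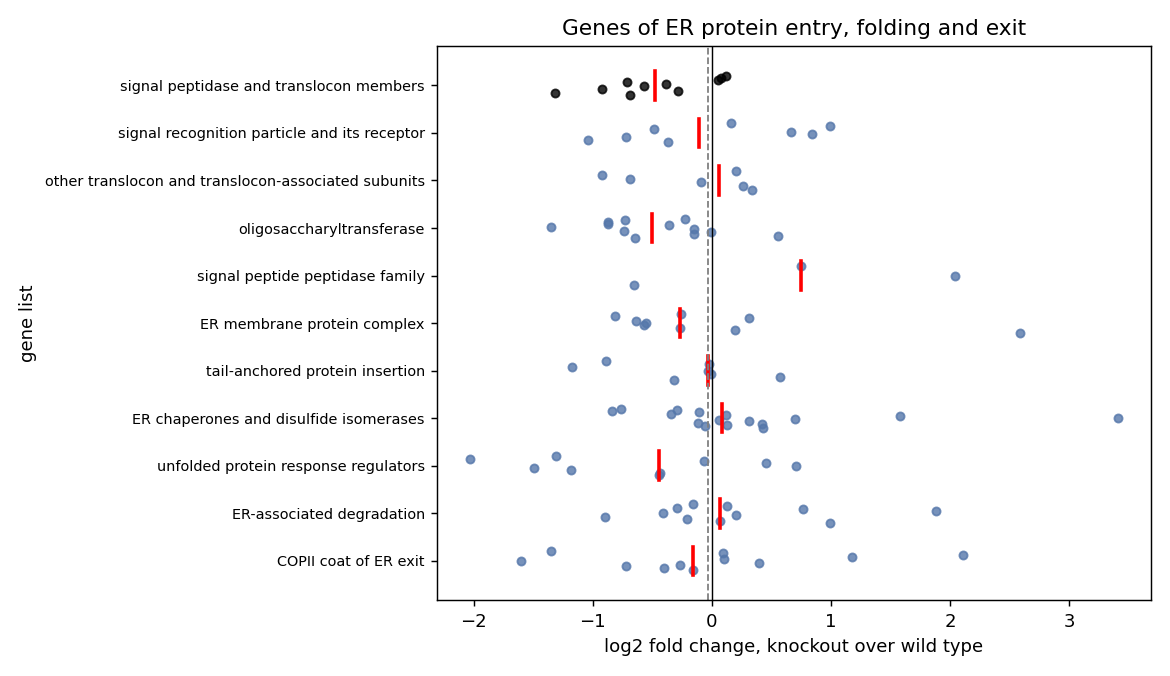
Log2 fold change, knockout over wild type, of every tested gene of the 10 members (black) and of 10 lists of ER entry, folding and exit (blue), with red bars at the list medians and the dashed line at the median of all genes tested. Oligosaccharyltransferase has 11 of 12 genes below 0 and chaperones 7 of 16, against 51.3% of all genes tested.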

How the data were processed

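RNA from approximately 1000 sorted microglia per sample was made into cDNA with a SMARTer Ultra Low kit, amplified and turned into Nextera XT libraries read as single reads of 50 cycles, per the labels' protocols. The deposited values are raw counts per gene symbol. Tools listed in the submitters' processing notes, without their roles, are STAR 2.5.2b, featureCounts 1.5.1 of Subread, limma 3.28.21 and CASAVA 1.8.2, and the build is GRCm38. Not given in the sources used here are the annotation, the strand setting and the treatment of reads that match several places. Amplified reads are not independent molecules.

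After removal of 92 spike-in entries, genes passing edgeR 4.0.16 filterByExpr (minimum count 10, total 15) were scaled by TMM and compared by the quasi-likelihood F test in R 4.3.3, 2-sided, with Benjamini-Hochberg adjustment over 10394 genes. Fold changes are log2 of knockout over wild type. Standard errors were derived from that fit, as the absolute log2 fold change divided by the square root of its F statistic. No read in a sample allows up to 3 reads, 0.104 to 0.264 CPM here. The test was checked on simulated counts for the 10394 genes: at the dispersions observed here genes with a 2-fold or 4-fold change were recovered in 0 of 67 cases each, and those with an 8-fold change in 5 of 66.

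Members and lists were chosen with earlier results of these data known. All members were named. From each pathway list, up to 2 genes of at least 20 CPM were named by smallest p, together with Lyl1, 4 microglia markers, the most abundant gene of each other marker list, and the 3 genes most like Sec11c and Sec61b. Positions, exons and 50-base words are from GENCODE M21 (GRCm38), exact matches on both strands, and copies it does not annotate are not seen.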

Additional observations from a re-analysis of the deposited data

How the results depend on the processing

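Over 15 alternatives from 6 to 10 members were below wild type and the log2 fold change of Sec11c ran from -1.46 to -1.09. The members' median fold change was -0.26 with upper-quartile scaling, -0.32 with library size, -0.24 with limma-voom and -0.30 with the replicate block, where the median of all genes tested moved from -0.03 to 0.09, 0.07, 0.20 and 0.18. Relative to that median it stayed between -0.60 and -0.30 in all alternatives. Leaving out 1 sample at a time gave 6 to 10 members below wild type, a median of -0.59 to -0.36 and 0 genes called. Without a filter on low counts edgeR called 8 genes, and DESeq2 1.42.0 on the genes edgeR tested called 52. The number of genes at an unadjusted p under 0.05 was 295, and 1158 without wild-type sample 3. Sppl2a turned to 0.77 with limma-voom, 0.15 with the replicate block and, with 1 sample left out, ranged from -1.17 to 0.78 (without wild-type samples 2 and 1); the cause was not tested. Same-numbered samples are known to share only the number. They did not deviate together (correlations over 6534 genes of -0.0006, -0.013 and -0.043), but 3 samples per genotype cannot exclude a pairing. The replicate block left 0 genes called and 171 at an unadjusted p under 0.05. With Xist as a covariate Spcs2 had a log2 fold change of -1.36 and Sec61g of -2.91, in a fit whose genotype term rested mainly on knockout sample 2. Levels per kilobase moved by more than 1 SD in 28 of 40 cases when another length was used. The values of Sec61g rest on 4 to 82 reads per sample, and the cause of these low counts was not tested.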

Other observations

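Windows of the 250 bases before the start that RefSeq tables list (GRCm38.p6) were found for 7 of the 10 genes, Sec11a, Spcs1, Spcs2, Sec61b, Sec61g, Ssr3 and Sec62, and were searched on both strands. GENCODE M21 places some of these starts elsewhere: the Sec11a window holds 230 bases of annotated Sec11a exon, and the Spcs2 window lies inside the annotated Spcs2 gene, with 112 bases in exons of Spcs2 or Xrra1. Of the 7 windows, that of Sec61g alone held no annotated exon base. The ER stress element, a CCAAT and a CCACG box at a fixed spacing, was in none of the 7 and in 0.113% of 32851 windows, and TGACGTGG, an element of the stress factors XBP1 and ATF6, in none and in 0.563%. Of the E-boxes that factors of the Lyl1 class can bind, CAGATG and CAGCTG were in none of the 7, against 14.4% and 13.0% of windows. The E-box CACGTG was in 1, that of Sec62, against 6.02%. A missing match says only that these letters are not in these windows.

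The spread between samples was smaller in knockout than in wild type for 8 of the 10 genes, against 70.3% of all genes tested. Sec11a had a coefficient of variation of 41.3% in wild type and 7.44% in knockout, where genes of like level had medians of 51.5% and 33.7%. Spcs2 went the other way, at 22.3% and 30.3%.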
